A study of Caenorhabditis elegans with 4 samples.

Results

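The X chromosome of Caenorhabditis elegans carried 924 ZHP-3 peaks in replicate 1, of 6537 in the whole list, and 924 in replicate 2, of 6086. The combined list of the series held 1614 X peaks of 11798. Every deposited peak assigned to the X was taken, by chromosome name alone, so peak height played no part in the choice. Merging overlapping peaks of the replicates and keeping the intervals with a peak of each gave 683 shared regions on the X, of 4634 in all. The X was set against chromosomes II to V, which held 4475 peaks in replicate 1, 4136 in replicate 2 and 3122 shared regions.

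The study mapped ZHP-3 by chromatin immunoprecipitation and sequencing (ChIP-seq) in 2 ChIP samples, with 2 input samples whose reads were not analysed here. Each of the 4 samples is labelled as hermaphrodites of strain fem-2(b245), genotype fem-2(b245)III, at 20 °C, so the ChIP samples and the inputs share the mutation and no wild type was included. The stage is given as germline-containing young adult, while the growth protocol speaks of gravid worms. Chromatin of frozen, ground worms was crosslinked for 10 min in 1% formaldehyde and sheared by sonication, and 5 µg of a rabbit polyclonal antibody raised against ZHP-3 and purified by affinity was used. Whole pooled worms were ground, so germline and somatic chromatin are mixed, and fewer cells with ZHP-3 at a site cannot be told apart from less ZHP-3 per cell. Peak lists hold no cell type markers, so the stage and tissue could not be checked. Nothing in the labels says that the replicates came from separate cultures, and the spread between them may be technical.

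ZHP-3 is a RING-finger protein related to budding yeast Zip3. In the hermaphrodite germline it loads along the synaptonemal complex, the protein axis that holds paired homologues together, and later withdraws to the sites chosen for crossovers. The X pairs through a pairing centre near its left end, which is bound by the zinc-finger protein HIM-8, and each autosome has such a centre near an end. Crossovers in this species fall mostly on chromosome arms, less sharply so on the X. In much of the germline the X is transcriptionally quiet compared with the autosomes. FEM-2 is a phosphatase of the sex-determination pathway.

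All coordinates are on the WormBase WS220 build and count from 1. The files state no chromosome lengths, so each chromosome was taken to end at the last base covered by any list, which gave 17.7 Mb for the X. Neither sequence nor genes of that build were used, so no sequence is printed and no gene is assigned to a peak. The lists hold no read counts, and the depth is unknown. Each peak carries the authors' score, on a scale that is not given. Scores served only to rank peaks within a list, as a percentile of the whole list. Both replicates belong to 1 group, and an exact permutation test on the sign of a difference seen in 2 replicates cannot go below p = 0.5. Differences between the X and the autosomes are therefore given as values of each replicate, with no test.

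Most X peaks recurred. In replicate 1, 714 of 924 X peaks (77.3%, exact Clopper-Pearson 95% interval 74.4% to 79.9%) overlapped a replicate 2 peak by at least 1 bp, against 73.4% of the whole list. In replicate 2, 722 of 924 (78.1%, 75.3% to 80.8%) overlapped a replicate 1 peak, against 81.7% of the whole list. These intervals cover counting error only and treat peaks as independent, which neighbouring peaks are not. On chromosomes II to V the shares ran from 69.8% to 74.0% in replicate 1 and from 80.8% to 83.4% in replicate 2. The X share was thus above the 4 autosomes in replicate 1 and below them in replicate 2. The peak numbers differ in the same way: the X had the same number of peaks in both replicates, while replicate 2 had 0.879 to 0.953 times as many as replicate 1 on the 4 autosomes. Of the merged X regions, 683 of 1095 (62.4%) held a peak of each replicate, against 61.9% in the whole genome, a share near the background.

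Recurrence on the X climbed with score. Among peaks in the lowest-scoring 25% of the whole list, 95 of 209 X peaks of replicate 1 (45.5%) and 132 of 237 of replicate 2 (55.7%) had a partner. In the highest-scoring 25%, 196 of 197 (99.5%) and 190 of 195 (97.4%) did. On II to V the same shares were 39.4% and 57.8% in the lowest-scoring 25%, and 97.8% and 99.3% in the highest-scoring 25%, so the climb with score was common to all the chromosomes compared.

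Paired X peaks sat in nearly the same place. Among 691 X peaks paired 1 to 1 by their largest overlap, the midpoints differed by a median of 24.0 bp, and 608 pairs (87.99%) differed by at most 100 bp. On chromosomes II to V the median offset was 27.0 to 29.5 bp. Paired X peaks had a median width of 404 bp in replicate 2 and 423 bp in replicate 1, and replicate 2 was also the narrower one on each of II to V, at 448 to 458 bp and 461 to 480 bp. Scores of the X pairs had a Spearman correlation of 0.71 across peaks, the lowest of the 5 chromosomes, whose other values ran from 0.74 to 0.78. Both points of each pair share a site and its sequence, so the coefficient describes the lists and is given without a p.

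X peaks were few for the length of the chromosome. The X had 52.1 peaks per Mb in both replicates, below each of chromosomes II to V in both. Chromosome V came nearest, with 56.2 peaks per Mb in replicate 1 and 53.5 in replicate 2, and chromosome III was densest, with 80.97 and 74.9. The X density was 0.786 times that of II to V together in replicate 1, was 0.851 times it in replicate 2 and averaged 0.819 ± 0.0456 (SD, n = 2). Peaks covered 2.94% and 2.86% of X bases, against 3.81% and 3.39% of II to V. In shared regions the X had 38.5 per Mb and chromosome V 39.7, so the 2 lowest chromosomes lay close together, while II, III and IV had 43.7, 57.4 and 47.6.

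X peaks were also slightly narrower than those of II to V together. The median width was 391 bp in replicate 1 and 381.5 bp in replicate 2 on the X, against 411 and 409 bp on II to V. Chromosome IV came closest to the X in both replicates. Shared regions had a median width of 478 bp on the X, against 514 to 518 bp on the 4 autosomes.

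Peaks above the 90th score percentile were less frequent on the X than on II to V together in both replicates. Of the X peaks, 73 in replicate 1 (7.90%) and 83 in replicate 2 (8.98%) were above the 90th score percentile, which 10.0% of each whole list passes. On II to V the shares were 10.7% and 10.3%. Chromosome III was lower than the X in replicate 2, at 8.82%. The score 3100, which recurs near the top of both lists, was held by 24 of 924 X peaks in replicate 1. In replicate 2 it was held by 32 of 924. On II to V 121 of 4475 and 133 of 4136 peaks held it, shares close to those of the X. In shared regions, 61 of 683 on the X (8.93%) held a peak above that percentile in each replicate, against 334 of 3122 (10.7%) on II to V, and the exact intervals of these shares, 6.90% to 11.3% and 9.64% to 11.8%, overlap.

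Strong X peaks were then placed along the chromosome. Each chromosome was divided into 3 equal parts, called here the left arm, the centre and the right arm. In the X centre 13 of 269 replicate 1 peaks (4.83%) and 19 of 275 replicate 2 peaks (6.91%) were above the 90th percentile, against 10.1% and 8.80% in the centres of II to V. The exact intervals of the centre were 2.598% to 8.12% on the X and 8.59% to 11.9% on II to V in replicate 1. They overlapped in replicate 2, with 4.21% to 10.6% and 7.33% to 10.5%. These intervals treat neighbouring peaks as independent, which they are not, so they do not test the difference. The X left arm had 10.7% and 10.8%, against 10.7% and 10.7% on the left arms of II to V, so the left arms were close to each other. The right arm had 7.89% and 9.04% on the X, against 11.04% and 11.1% on the right arms of II to V, so in replicate 2 the right arm differed by as much as the centre. The stretch from 6 to 9 Mb was singled out after its values were seen. In it 3 of 150 X peaks of replicate 1 (2%) and 4 of 142 of replicate 2 (2.82%) were above the 90th percentile. In the combined list 21 of 241 peaks of that stretch (8.71%) were above its own 90th percentile. The combined list did not show the low centre: 42 of its 453 X centre peaks (9.27%) were above its own 90th percentile, against 9.36% in the centres of II to V.

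Along the X, shared regions were densest in the first 1 Mb and from 14 to 17 Mb, and sparsest from 3 to 4 Mb. Over the 17 full windows of 1 Mb, shared regions ranged from 23 to 52, with a median of 38. The densest were window 17, from 16 to 17 Mb, with 52 shared regions, window 15 with 51 and window 1, at the left end, with 49. The sparsest was window 4, from 3 to 4 Mb, with 23 shared regions, 29 replicate 1 peaks and 42 replicate 2 peaks. The lowest full window was another one in replicate 2, window 8 with 39 peaks, and in the combined list, window 7 with 65. Peak numbers of the replicates had a Spearman correlation of 0.77 across these 17 windows, which share 1 chromosome and its sequence. The replicates parted most in window 8, from 7 to 8 Mb, with 57 peaks in replicate 1 and 39 in replicate 2. Of these, 26 and 10 lay in the 100 kb that begin at 7.3 Mb.

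**Figure D1:**
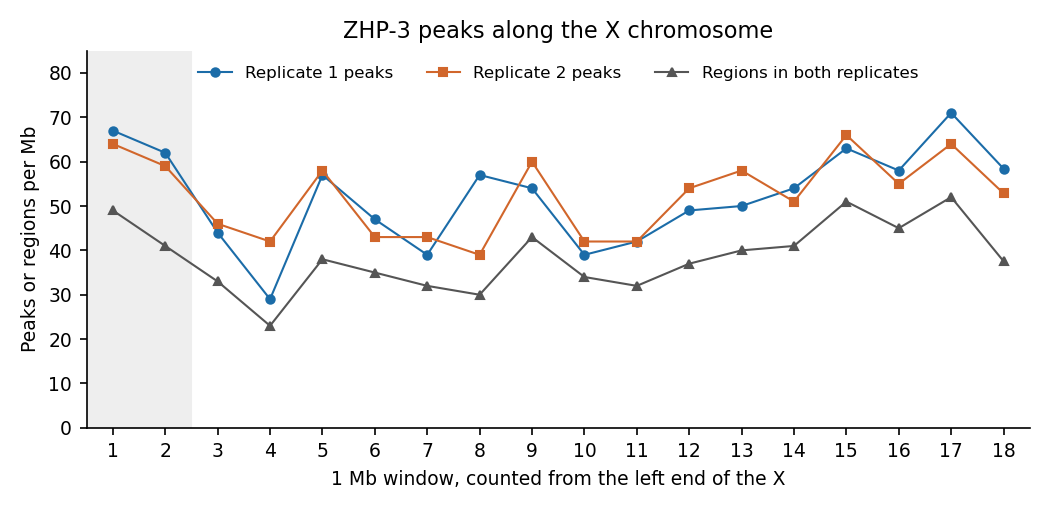
Peaks or shared regions per Mb (vertical axis) in each 1 Mb window of the X, counted from the left end (horizontal axis), with circles for replicate 1, squares for replicate 2 and triangles for regions found in both. The grey band is the first 2 Mb, the last window is shorter and scaled to 1 Mb, and shared regions are lowest in window 4, with 23, and highest in window 17, with 52.

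The left end, where the pairing centre lies, was examined as the first 2 Mb, a window chosen here and not a mapped limit of the centre. It held 129 peaks in replicate 1 and 123 in replicate 2, which is 64.5 and 61.5 per Mb, against 50.6 and 50.96 per Mb on the rest of the X. The ratio, 1.28 in replicate 1 and 1.21 in replicate 2, averaged 1.24 ± 0.0484 (SD, n = 2). Shared regions gave 1.19, with 45 per Mb in the first 2 Mb and 37.7 elsewhere. The right end of the X, the last 2 Mb, was also denser than the rest, with ratios of 1.25 and 1.11, so both ends exceeded the rest.

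Other chromosomes had ends as dense or denser for their own level. Among the 10 ends of the 5 chromosomes, the X left end ranked 4 in replicate 1 and 3 in replicate 2. The right end of chromosome II was first in both, with ratios of 1.45 and 1.43, and the right end of chromosome V had 1.29 and 1.34. The left ends of II and V were below 1 in both replicates, with 0.987 and 0.854 on II and 0.785 and 0.877 on V.

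**Figure D2:**
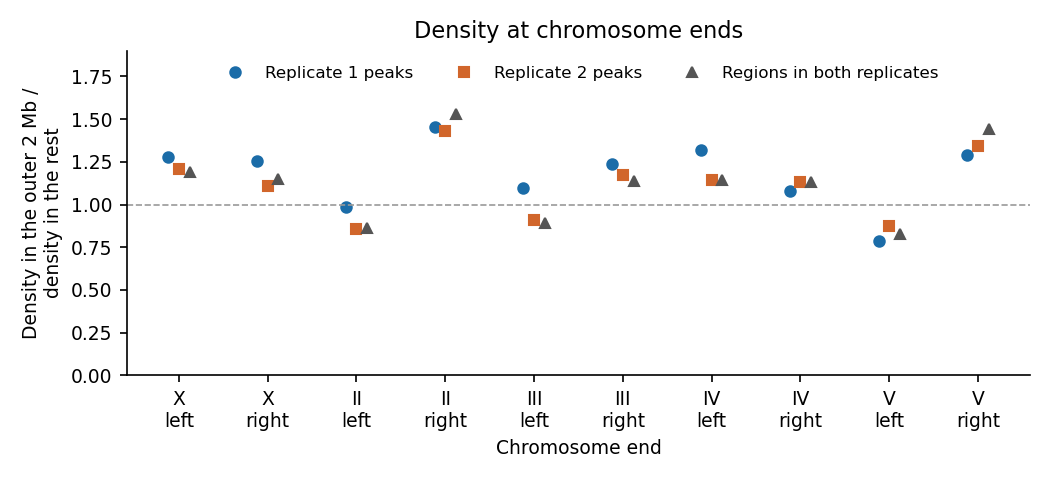
Density in the outer 2 Mb divided by density in the rest of the same chromosome (vertical axis) for both ends of 5 chromosomes (horizontal axis), with circles for replicate 1, squares for replicate 2 and triangles for shared regions. The X left end lies at 1.28, 1.21 and 1.19, below the right end of chromosome II at 1.45, 1.43 and 1.53, and the dashed line marks equal density.

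Strong peaks at the left end were also counted. It held 15 of 129 replicate 1 peaks (11.6%) and 19 of 123 replicate 2 peaks (15.4%) above the 90th score percentile, against 7.30% and 7.99% on the rest of the X. The exact intervals overlapped in both replicates, with 6.66% to 18.45% at the left end and 5.59% to 9.33% on the rest in replicate 1, and with 9.56% to 23.1% and 6.21% to 10.1% in replicate 2. The first 2 Mb of II to V had 10.6% and 10.3%, and in the combined list the X left end had 10.5%, against 9.18% on the rest of the X, so the share stood above these values mainly in replicate 2. The X left end held no gap of more than 100 kb between shared regions, the longest being 85.3 kb, while each of the other 9 ends had at least 1 such gap. Its median gap, 17.2 kb, was nonetheless the longest of the 10 ends, the others running from 5.69 to 16.95 kb.

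Counted in shared regions, the densest 100 kb of the X lay here too. The second window from the left end, from 0.1 to 0.2 Mb, held 13 shared regions, the highest number of the 177 full windows of the X, whose median was 4. It had the most replicate 2 peaks as well, 16, but not the most replicate 1 peaks. In replicate 1 it had 14, against 26 in the window that begins at 7.3 Mb, where replicate 2 had 10 and 9 regions were shared. The 13 regions near the left end spanned 104699 to 190141, covered 12.8 kb and included 5 with a peak above the 90th percentile in each replicate. Among them were a 5213 bp region at 109147 to 114359, a 918 bp region at 142780 to 143697 and a 1858 bp region at 188284 to 190141, each with a score of 3100 in both replicates. The score 3100 recurs at the top of the lists, in 24 X peaks of replicate 1 and 32 of replicate 2, so the order among these peaks is tied. Of the 924 X peaks in each replicate this is a share close to that of II to V, with 121 of 4475 and 133 of 4136.

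At the outermost left, a peak began at base 1 in all 3 lists, as on each of chromosomes II to V. On the X it was 369 bp long in replicate 1 (score 572.94, percentile 85.2) and 370 bp in replicate 2 (score 2043.01, percentile 95.2), against percentiles from 55.9 to 91.4 and from 86.4 to 93.3 for the peaks at base 1 of II to V. The next shared region, at 28236 to 28651, was weak in both replicates, at percentile 21.2 in replicate 1 and 9.70 in replicate 2. The one after it, at 53320 to 54358, was far weaker in replicate 2, at percentile 10.95, against 74.3 in replicate 1. The first 100 kb held 14 peaks in replicate 1 and 6 in replicate 2, so the replicates differed at the tip. At the right end the last 3 shared regions lay at 17636411 to 17636678, 17684665 to 17685039 and 17692488 to 17692916, with percentiles from 5.45 to 26.96 in replicate 1 and from 8.26 to 44.98 in replicate 2. The last one ended 25.97 kb before the last base covered by any list.

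The X arms held more peaks than the centre. Replicate 1 had 60.1 peaks per Mb on the right arm, 50.8 on the left arm and 45.5 in the centre, and replicate 2 had 58.1, 51.8 and 46.6. The arm to centre ratio, 1.22 in replicate 1 and 1.18 in replicate 2, averaged 1.199 ± 0.0265 (SD, n = 2). Both X values were above those of II, III, IV and V in the same replicate, which ran from 1.13 to 1.17 in replicate 1 and from 0.937 to 1.14 in replicate 2. In shared regions the ratio on the X was 1.19, and chromosome V had 1.19 as well. Shared regions numbered 45.2 per Mb on the X right arm, 36.2 on the left arm and 34.2 in the centre. The X left arm was uneven. Its first 2 Mb held 129 of its 300 replicate 1 peaks and 123 of its 306 replicate 2 peaks. The windows of 1 Mb from 2 to 6 Mb held 44, 29, 57 and 47 replicate 1 peaks, and 46, 42, 58 and 43 replicate 2 peaks.

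The right arm of the X was denser than the left in peak number, by 1.18 times in replicate 1, by 1.12 times in replicate 2 and averaging 1.15 ± 0.0441 (SD, n = 2). The X was not alone in this: chromosome II had ratios of 1.22 and 1.27, and chromosome V 1.23 and 1.12. Chromosome III had 0.990 and 1.04, and chromosome IV 0.864 and 0.961. In covered bases the order on the X was reversed. Its right arm had 31.1 kb per Mb in replicate 1 and 30.1 in replicate 2, and its left arm 32.97 and 31.9. A single block on the left arm, described below, accounted for 23.0 kb of the left arm in replicate 1 and 23.1 kb in replicate 2. Without it the right to left ratio of covered bases was 1.07 and 1.08, an alternative chosen after the data were seen.

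**Figure D3:**
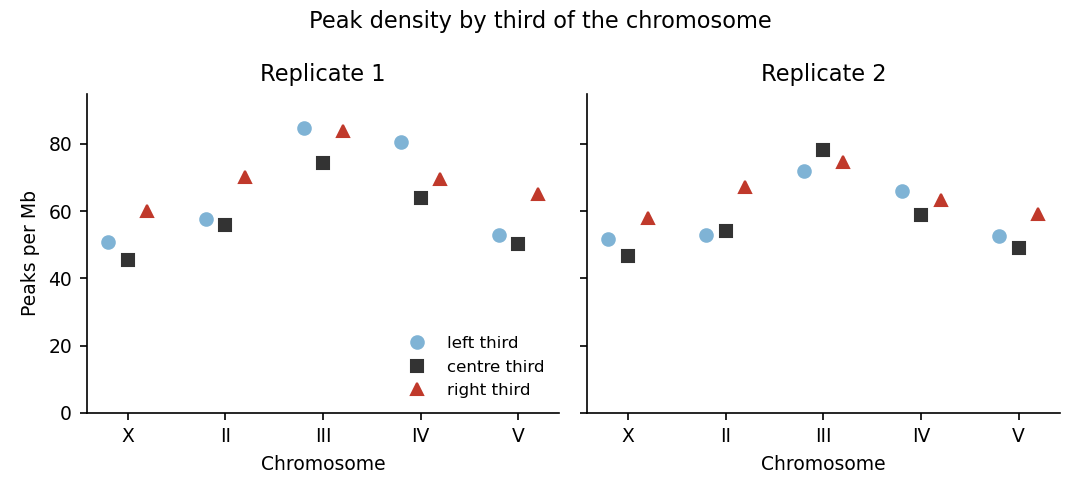
Peaks per Mb (vertical axis) in the left part (circles), centre (squares) and right part (triangles) of the X and of chromosomes II to V (horizontal axis), each divided into 3 equal parts, with 1 panel per replicate. The X centre, at 45.5 in replicate 1 and 46.6 in replicate 2, is the lowest point of each panel.

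The X had long stretches without a shared region. The median gap between neighbouring shared regions was 13.9 kb on the X, against 9.03 to 11.6 kb on the 4 autosomes. The longest X gap was 233.9 kb, against 203.6 kb on V, 193.8 kb on IV, 183.2 kb on III and 149.6 kb on II. The X had 28 gaps of more than 100 kb, which took up 21.3% of its length. Chromosome V had more of them, 40 gaps over 24.9% of its length, and II, III and IV had fewer, with 17, 6 and 18.

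The 5 longest X gaps were 3371685 to 3605632, 5475705 to 5707789, 6378779 to 6593328, 3772805 to 3969362 and 7507423 to 7680749. They measured 233.9, 232.1, 214.6, 196.6 and 173.3 kb and all lay between 3 and 8 Mb, as did 13 of the 28 gaps of more than 100 kb. None of the 28 lay in the first 2 Mb. The gaps were not empty of peaks in single lists. The longest had 0 replicate 1 peaks and 3 replicate 2 peaks, and the next had 2 and 3.

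The gap at 6378779 to 6593328 stood out because neither replicate had a peak in it. Its 214.6 kb made it the longest stretch without a peak of either replicate on the 5 chromosomes, where the longest on II to V was 136.0 kb, on II. The combined list, which is longer, placed 5 peaks in it. In that list the longest X gap was 115.3 kb, from 3130554 to 3245806, and the longest of II to V was 110.4 kb, on IV. Of the 177 full windows of 100 kb on the X, 15 (8.47%) had no shared region, against 0.730% to 6.22% on the 4 autosomes, and 3 had no peak of either replicate.

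**Figure D4:**
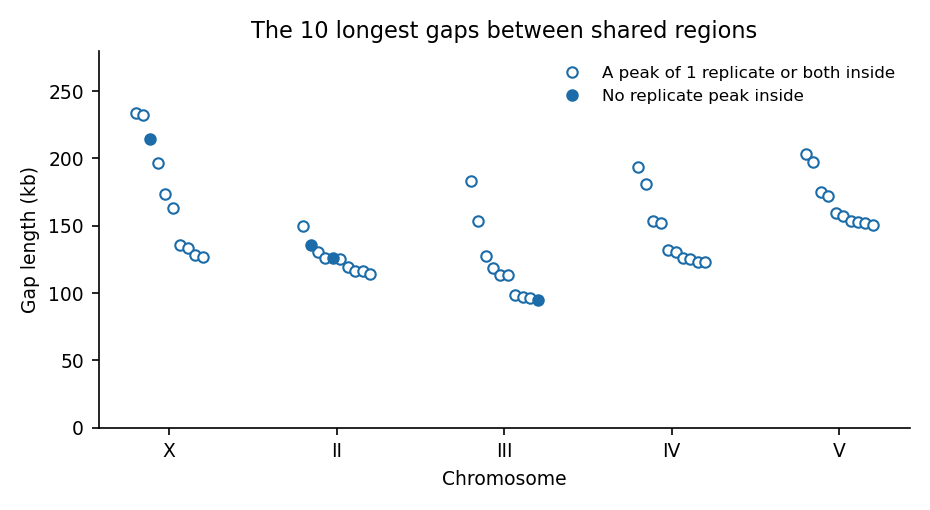
Length in kb (vertical axis) of the 10 longest gaps between shared regions on the X and on chromosomes II to V (horizontal axis), with filled circles for gaps without a peak of either replicate. The 2 longest gaps, of 233.9 and 232.1 kb, are on the X, and the filled X circle is the 214.6 kb gap.

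Bunching of shared X regions lay within the range of the autosomes. On the X 193 of 683 (28.3%, exact 95% interval 24.9% to 31.8%) had another within 1000 bp, against 25.3% to 30.4% on the 4 autosomes. Joining such neighbours turned the 683 regions into 567 sites, of which 77 held more than 1 region. Windows of 100 kb with 10 or more shared regions were rare on the X, 4 of 177 (2.26%), against 4.31% to 9.49% on the autosomes. Beside the window at the left end they began at 6.2 Mb (11 regions), 14.1 Mb (11) and 16.2 Mb (12). The window at 6.2 Mb came right after a window of 100 kb with no peak midpoint in any of the 3 lists, and its last region lay 81.95 kb before the 214.6 kb gap. In it 6 shared regions lay within 4749 bp, at 6251934 to 6256682, the most of any joined site on the X, with top scores of 710.51 in replicate 1 and 534.6 in replicate 2.

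Joined sites of 10 kb or more numbered 2 on the X, against 2 on II, 4 on III, 2 on IV and 3 on V. The longer X block spanned 24.0 kb on the left arm, from 4032549 to 4056522. It began 63.2 kb after the end of the gap at 3772805 to 3969362. Replicate 1 had 7 peaks in it, covering 95.9% of its bases, and replicate 2 had 5, covering 96.3%. Its highest score was 1006.41 in replicate 1 (percentile 91.96), 680.72 in replicate 2 (percentile 86.5) and 23.26 in the combined list (percentile 74.2). Its lowest peak stood at percentile 37.4 in replicate 1 and 7.24 in replicate 2. The replicates agreed on the outer edges to within 3 bp on the left and 53 bp on the right, but cut the inside differently, with a widest peak of 8270 bp in replicate 1, one of 9996 bp in replicate 2 and, in the combined list, one of 12645 bp.

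The other block spanned 11.8 kb near the right end, from 16928093 to 16939938, and was strong. It held 6 replicate 1 peaks and 4 replicate 2 peaks, with scores of 3100 for 3 peaks in replicate 1 and for 2 in replicate 2. The combined list gave most of it as a single peak of 10625 bp with a score of 188.78, the third highest of its X sites. Peaks covered 90.8% of the right-arm block in replicate 1 and 91.8% in replicate 2, somewhat less than of the left-arm block. The 2 blocks were unlike in top score. Input reads were not analysed here, and no block was compared with input.

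**Figure D5:**
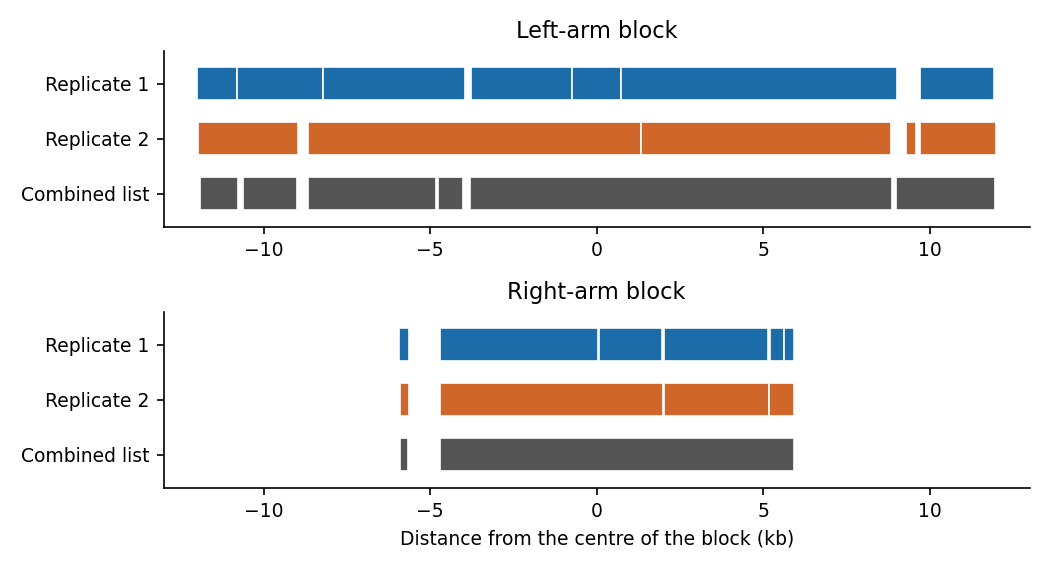
Peaks of replicate 1, replicate 2 and the combined list (rows) in the 2 X blocks of 10 kb or more, drawn to scale by distance from the centre of each block in kb (horizontal axis), with white lines or spaces between peaks. The left-arm block is covered to 95.9% in replicate 1 and 96.3% in replicate 2, and the combined list gives most of the right-arm block as 1 peak of 10625 bp.

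The widest shared X region, 20992 bp at 4032549 to 4053540, made up most of the left-arm block. It was followed by 8254 bp at 10360945 to 10369198, 6715 bp at 16929302 to 16936016, 6242 bp at 289143 to 295384, 6192 bp at 2057719 to 2063910, 5221 bp at 14384618 to 14389838 and the 5213 bp region of the left end. These 7 were wider than 5000 bp, against 4 on II, 10 on III, 4 on IV and 5 on V. The next 3, at 15806948 to 15811289, 9184876 to 9189155 and 5047842 to 5051474, measured 4342, 4280 and 3633 bp. Of the 10, the left arm carried 5, the right arm 3 and the centre 2. The region at 10360945 was a single wide peak in each replicate, of 8254 bp in replicate 1 and 8191 bp in replicate 2, yet scored 192.21 in replicate 1 (percentile 55.5) and 3100 in replicate 2 (percentile 98.3).

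The strongest X sites, ranked by combined score among those with a peak in each replicate, were led by 11605260 to 11606513, a 1254 bp peak with 222.44 in the combined list and 3100 in both replicates. The second lay near the right end at 16850607 to 16852299, with a combined score of 208.03, 3100 in replicate 1 and 2858.71 in replicate 2. The third was the 10625 bp peak of the right-arm block, 77.0 kb further on.

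The right arm gave the next 3 sites as well. They were 14723433 to 14724850 (combined score 186.32), 16286116 to 16286869 (180.7) and 12520222 to 12522127 (179.59). The left end then gave 516239 to 517529 (178.46) and 1503469 to 1505186 (177.01), followed by 9604630 to 9607854 in the centre (175.98) and 142740 to 143726 at the left end (156.79). Of these 10 sites, 5 were on the right arm, 3 on the left arm, all inside the first 2 Mb, and 2 in the centre. Their lowest percentile was 95.2 in replicate 1 and 94.7 in replicate 2, both at the narrowest of the 10, 16286116 to 16286869.

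Peaks of 1 replicate alone were mostly weak and narrow. On the X 210 replicate 1 peaks had no replicate 2 partner, with a median score percentile of 21.2 and a median width of 277.5 bp, against 59.1 and 423 bp for the peaks with a partner. In replicate 2, 202 had none, with 23.3 and 305.5 bp against 54.1 and 404 bp. Their share was similar in all parts of the X, from 21.4% (76 of 355, right arm) to 75 of 300 (left arm) in replicate 1 and from 19.2% to 24.2% in replicate 2.

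The strongest of them lay close to a peak of the other replicate. In replicate 1 these were 7353851 to 7354972 (score 538.77), its neighbour 7355053 to 7355715 (291.54) and 2463335 to 2463709 (279.82), at 1.80, 1.06 and 0.692 kb from a replicate 2 peak. In replicate 2 they were 12663357 to 12664107 (589.33), 6735338 to 6736032 (532.31) and 12277223 to 12278270 (478.33), at 0.772, 1.47 and 0.942 kb from a replicate 1 peak. The combined list had a peak at all 6, as it did at 207 of the 210 and 197 of the 202 peaks without a partner.

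In the combined list, 658 of 1614 X peaks (40.8%) overlapped a peak in each replicate, against 37.7% of the whole list. A further 172 (10.7%) overlapped replicate 1 alone and 180 (11.2%) replicate 2 alone, and 604 (37.4%) overlapped neither. On the 4 autosomes 39.8% to 44.7% overlapped neither, and more peaks overlapped replicate 1 alone (11.2% to 14.1%) than replicate 2 alone (7.85% to 8.26%), an order that the X did not show. X peaks found in neither replicate had a median combined score of 5.1, against 30.36 for those found in both. Their density, 38.3 per Mb on the right arm, 36.1 on the left arm and 27.9 in the centre, followed that of all X peaks of the list, and their share was 36.7%, 39.1% and 36.4% there.

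The combined list is not an independent sample, as it covers the same experiment and the sources do not say which reads entered it. Its X peaks ranked higher within their list, at a median percentile of 54.4, against 48.6 for II to V, than in the replicates, where they stood at 49.3 in replicate 1 and 46.8 in replicate 2, against 50.02 and 50.5 for II to V.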

How the data were processed

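ZHP-3 ChIP-seq peak lists of 2 ChIP replicates and 1 combined list of the series were used. Per the file headers, coordinates are on WormBase WS220, and per the source column of the deposited files peaks were called with MACS in the replicates and MACS v2 in the combined list. BWA and the build ce10 are named in the submitters' processing notes. Caller settings and the control are not stated in them. The score of each peak is the authors' own, on a scale not stated, and served only to rank peaks within a list. The other deposited measure is the first and last base of each peak.

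Overlaps needed 1 bp. Shared regions are merged intervals that hold a peak of each replicate. Peaks were placed in parts and windows by midpoint. Intervals of shares are exact Clopper-Pearson 95% intervals, which cover counting error only, treat peaks or regions as independent and are not a test. No test was run, as both libraries belong to 1 group. Chromosome I was not compared. Functions were tested on simulated lists. Named sites are the 10 strongest and 10 widest, blocks of 10 kb, the 5 longest gaps, the densest and sparsest windows, the outer 3 regions at each end and the 3 strongest peaks of each replicate without a partner. Regions of the densest 100 kb windows and the stretch from 6 to 9 Mb were chosen after their values were seen. Members, windows and rules were chosen with earlier results of these data known. Alternatives changed overlap, score limit, counting unit, window, list and replicate. Python 3.11.15, NumPy 2.4.6, pandas 2.3.3, SciPy 1.17.1 and matplotlib 3.10.9 were used.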

Additional observations from a re-analysis of the deposited data

How the results depend on the processing

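No paired analysis was possible because all peak lists come from the ChIP group, and no result compares it with input. A single result changed direction: the right to left arm ratio of 1.15 became 0.944 in covered bases, and was 1.07 in covered bases without the left-arm block (added after seeing the data) and 1.03 in the higher-scoring 50%. With 50% reciprocal overlap, recurrence on the X was 70.6% in both directions. Against the higher-scoring 50% of the other replicate it was 43.7% and 50.8%, a smaller set by construction. Within the higher-scoring 50% of both lists it was 71.7% for replicate 1 and 78.4% for replicate 2. The combined list gave an X to autosome ratio of 0.756 and an arm to centre ratio of 1.28, and the cause was not tested. The arm to centre ratio was 1.32 in covered bases and 1.25 with the outer 2 of 4 parts as arms. The left end to rest ratio was 1.39 in covered bases, 1.31 in the higher-scoring 50% and 1.11 with a window of 3 Mb. Regions with a neighbour made up 19.3% within 500 bp and 37.2% within 2000 bp. The longest X gap was 214.6 kb between peaks of either replicate and 115.3 kb in the combined list. Without either replicate in turn, the X to autosome ratio ran from 0.786 to 0.851, with arm to centre ratios of 1.18 to 1.22, right to left ratios of 1.12 to 1.18 and left end ratios of 1.21 to 1.28. With 2 replicates such values always lie within 1 SD of the mean. Unknown depth limits any reading of peaks seen in 1 replicate.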
